A study of Homo sapiens with 12 samples.

Results

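AP-1 is a dimeric transcription factor, and this account follows the transcripts of 8 of its subunits in HEK293 cells given TNFα, the Mediator kinase inhibitor Senexin B, or both. The subunits were taken by symbol from a table of 56634 gene symbols: JUN, JUNB, JUND, FOS, FOSB, FOSL1, FOSL2 and ATF3. All 8 were in the table, and all 8 were among the 14822 genes with enough counts to be tested. HEK293 is a human embryonic kidney line carrying adenoviral sequence, so the values describe 1 line.

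Bulk RNA was sequenced from 3 biological replicates, as the labels call them, in each of 4 groups, 12 libraries in all. In TNF_SnxB, cells had 1 µM Senexin B for 3 h in all, 1 h before and 2 h together with 10 ng/mL TNFα. In TNF, the 2 h of 10 ng/mL TNFα followed 1 h in DMSO vehicle without the inhibitor. In SnxB, cells had 1 µM Senexin B for 3 h and no cytokine, and in DMSO they had 0.1% DMSO alone. Senexin B inhibits CDK8 and CDK19, the kinases of the Mediator complex that links transcription factors to RNA polymerase II. In bulk samples, fewer cells with a transcript and less of it per cell cannot be told apart.

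As background, AP-1 dimers bind DNA through basic leucine zipper domains. JUN proteins pair with each other or with FOS proteins, while FOS proteins need a partner. TNFα activates JNK and p38 kinases, which phosphorylate JUN and ATF2, and these factors act in turn on the JUN gene itself. It also activates NF-κB, which drives JUNB among many other genes. ATF3 is a stress-induced member of the wider family that can pair with JUN proteins.

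The libraries held 8705277 to 50943310 counts, with TNF library 2 at 4.87 times the median of the other 11. Levels are given as CPM, read counts scaled to library size by the TMM method, and 3 counts, taken as the floor, were worth 0.0589 to 0.345 CPM in a library. The cadherin CDH2 (152 to 175 CPM), VIM (442 to 538 CPM) and the keratin KRT8 (133 to 160 CPM) were abundant in every library. PAX2, a kidney marker, was low at 0.329 to 1.33 CPM. Of the 8 markers listed for HEK293, LHX1 (2.57 to 5.47 CPM) and NEFM (0.474 to 0.88 CPM) were also low. KRT18 (68.6 to 84.8 CPM) and NEFL (38.8 to 58.9 CPM) lay between. The 5 leukocyte markers summed to 0.286 to 0.768 CPM in TNF_SnxB, 0.714 to 1.14 in TNF, 0.568 to 1.06 in SnxB and 0.604 to 0.868 in DMSO, with CD3E at 0 counts. The 3 endothelial markers summed to at most 0.528 CPM in any library. The 4 fibroblast markers summed to 14 to 15 CPM in TNF_SnxB, 13.9 to 15.6 in TNF, 15.3 to 17.8 in SnxB and 14.5 to 15.9 in DMSO, almost all of it COL1A1, with DCN at 0 counts. TNF_SnxB libraries 2 and 3 stood apart: the more GC a transcript held, the further they lay below its mean over the 12 libraries (Spearman -0.683 and -0.682 across genes), against -0.117 to 0.448 in the other 10. JUND and JUNB are GC-rich, at 69.7% and 64.9% over their exons, so called members and the interaction in TNF_SnxB comparisons are also given after a GC and length correction and with TNF_SnxB library 1 alone. In the fit with library 1 alone, that group has 1 sample, which is assumed to vary like the other groups, so its p values have no replicate check within TNF_SnxB.

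Promoter sequences are shown for JUN, JUND, ATF3 and JUNB, the members that rose with TNFα (below). RefSeq windows (GRCh38.p14, the build of the counts) were found for 7 of the 8 members, 8 windows in all, with 2 for ATF3. FOSL1 had no window. Each line is 250 bases ending just before the RefSeq start, read 5′ to 3′ on the strand of the gene, with motif matches in capitals. The JUN window is chr1:58784048-58784297 on the minus strand and the JUND window chr19:18281623-18281872 on the minus strand. The JUNB window is chr19:12791236-12791485 on the plus strand. ATF3 window 1 is chr1:212565157-212565406 on the plus strand. Its window 2, chr1:212614768-212615017, lies before a start downstream.
JUN: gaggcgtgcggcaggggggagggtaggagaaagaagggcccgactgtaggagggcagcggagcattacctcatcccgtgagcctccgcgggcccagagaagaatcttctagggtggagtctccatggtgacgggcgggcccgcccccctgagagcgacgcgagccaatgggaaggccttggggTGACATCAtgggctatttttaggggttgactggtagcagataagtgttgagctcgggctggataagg
JUND: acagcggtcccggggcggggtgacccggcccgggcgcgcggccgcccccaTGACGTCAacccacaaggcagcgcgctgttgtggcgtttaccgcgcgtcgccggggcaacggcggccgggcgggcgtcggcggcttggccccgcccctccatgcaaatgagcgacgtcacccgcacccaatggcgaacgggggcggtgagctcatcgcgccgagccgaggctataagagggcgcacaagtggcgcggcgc
ATF3 window 1: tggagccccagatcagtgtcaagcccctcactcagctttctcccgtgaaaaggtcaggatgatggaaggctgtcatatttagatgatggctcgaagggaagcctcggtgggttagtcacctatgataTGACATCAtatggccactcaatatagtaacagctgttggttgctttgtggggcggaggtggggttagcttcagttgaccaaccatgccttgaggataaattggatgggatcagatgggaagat
JUNB: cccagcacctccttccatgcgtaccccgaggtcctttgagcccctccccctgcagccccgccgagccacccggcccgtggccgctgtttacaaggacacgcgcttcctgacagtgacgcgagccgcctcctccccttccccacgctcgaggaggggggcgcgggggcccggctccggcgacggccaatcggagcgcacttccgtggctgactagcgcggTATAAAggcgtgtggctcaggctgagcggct

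The capitals in JUN and in ATF3 window 1 are the same 8 letters, TGACATCA, at -67 to -60 and at -123 to -116 from the start. They differ by 1 base from the cyclic AMP response element, TGACGTCA, which stood in the JUND window at -200 to -193. Such 8-letter elements are bound in other settings by ATF and JUN dimers. JUNB has TATAAA at -31 to -26, the form of a TATA box. The same 6 letters stood at -33 to -28 in FOS, -30 to -25 in FOSB and -230 to -225 in ATF3 window 2. Over 35116 windows of the same length, both strands, TGACATCA was found in 2.37%, TGACGTCA in 1.65%, either of them or another middle base (TGACNTCA) in 6.87%, and TATAAA in 10.7%. No member window held the TPA response element TGANTCA (6.57% of windows), the κB motif (5.21%) or the serum response element (1.16%). Bases further upstream or past the start were not searched. Whether these genes have such elements outside the windows was therefore not tested. A match is a description of letters, and binding was not measured. In GENCODE release 29 the JUN gene model starts further upstream, at 58784327, so the RefSeq start used here is 1 of its possible starts. The ATF3 gene model there spans chr1:212565334-212620777. Whether either ATF3 window precedes the start of its principal transcript was not tested.

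**Figure D1:**
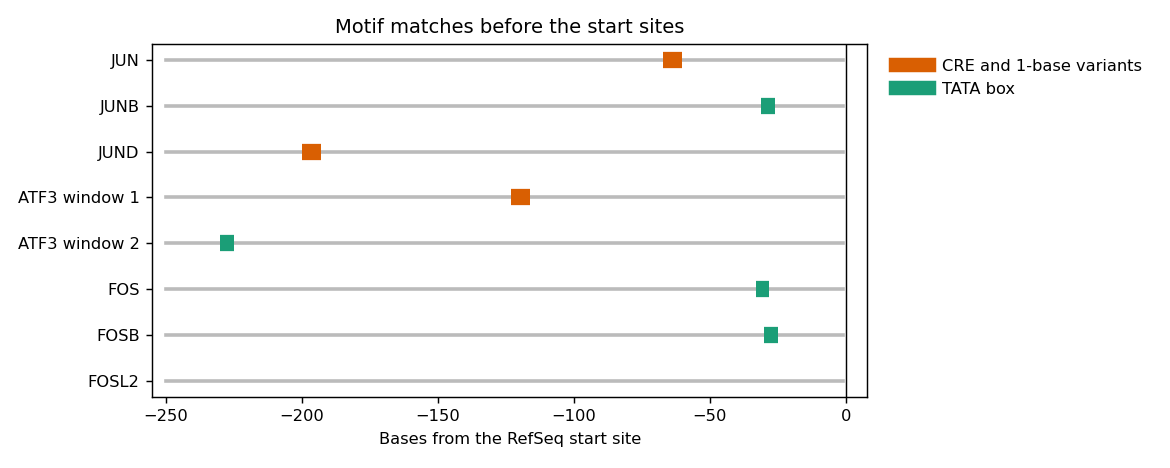
Positions of motif matches (colored blocks) in 8 windows of 250 bases (grey lines) before the RefSeq start of 7 AP-1 genes; the x axis is the distance in bases from the start. The element of the TGACNTCA form is in JUN, JUND and ATF3 window 1, and TATAAA lies between -33 and -25 in JUNB, FOS and FOSB.

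Levels of the 8 genes were compared per kilobase of exon. In DMSO the order was JUN at 78.1 ± 3.45 CPM per kb, JUND at 48.6 ± 3.38, ATF3 at 12.0 ± 1.22, JUNB at 5.89 ± 0.307, FOSL2 at 2.19 ± 0.0471, FOSL1 at 1.52 ± 0.322, FOS at 0.700 ± 0.0446 and FOSB at 0.198 ± 0.0411 (SD, n = 3). No neighbours in that order overlapped between libraries. Each JUN gene stood above each FOS gene in all 4 groups. In TNF the order had JUNB above ATF3, at 31.6 ± 0.116 against 18.2 ± 0.338 CPM per kb. By the length of the longest transcript ATF3 stood above JUNB there, at 35.0 ± 0.649 CPM per kb, and its DMSO level was 23.0 ± 2.34, so the place of ATF3 beside JUNB in TNF depends on the length used. With the inhibitor, JUND and JUN overlapped: in TNF_SnxB they had 38.4 ± 5.81 and 36.7 ± 2.44 CPM per kb, and in SnxB 34.0 ± 1.49 and 32.7 ± 1.01. In SnxB, FOSL2 also overlapped FOSL1, and FOS overlapped FOSB.

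**Figure D2:**
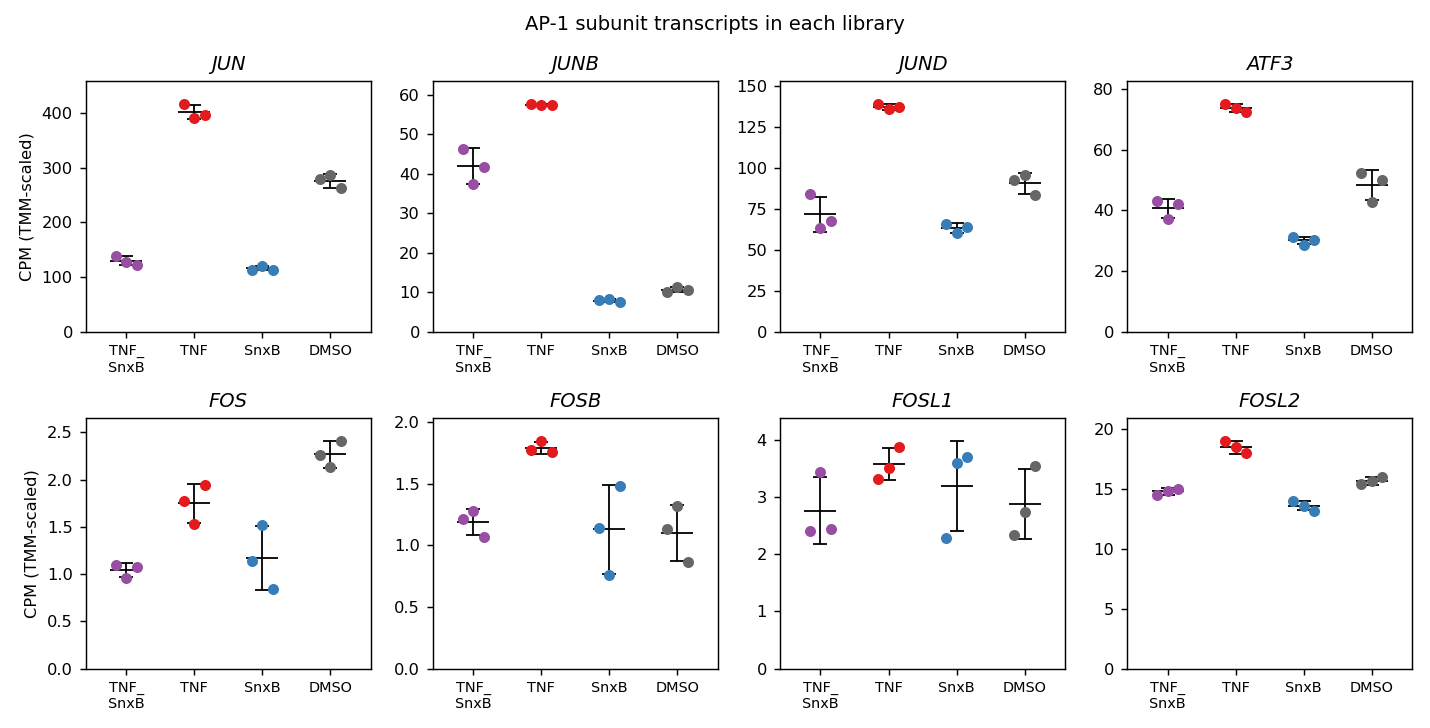
CPM (y axis, from 0, each panel with its own scale) of the 8 AP-1 genes in each of 12 libraries, with group means and SD as black lines. JUN is lowest in the 2 groups with Senexin B, at 130 and 116 CPM, while JUNB is high in the 2 groups with TNFα, at 41.9 and 57.5 CPM.

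TNFα against DMSO asks which subunits 2 h of the cytokine moved without the inhibitor. The 3 JUN genes and ATF3 rose, and JUNB rose most, to 57.5 ± 0.211 CPM in TNF against 10.7 ± 0.558 in DMSO (SD, n = 3 each). These 4 of 8 members were higher (edgeR, adjusted p under 0.05), beside 1.43% of all genes tested, and 0 were lower, beside 0.594% (FOS had an unadjusted p of 0.0352, and DESeq2 called 0 lower). The libraries of the groups did not overlap for 7 of 8 members, beside 20.2% of all genes tested.

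JUNB, whose protein can antagonize JUN, had 57.7, 57.4 and 57.3 CPM in TNF, against 10.2, 11.3 and 10.6 in DMSO. The groups lay far apart, and the 3 TNF libraries were almost level. Its log2 fold change was 2.42 (SE 0.0785), 5.36-fold, with an edgeR adjusted p of 7.29e-20. JUNB shares 259 exon bases with HOOK2 on the opposite strand, and the strand setting of the counting is not given. HOOK2 itself averaged 11.4 CPM in TNF_SnxB, 11.5 in TNF, 11.0 in SnxB and 11.2 in DMSO.

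JUN, the founding subunit and a JNK substrate, had 417, 392 and 396 CPM in TNF, against 280, 287 and 263 in DMSO. Every TNF library was above every DMSO library. The log2 fold change was 0.54 (SE 0.0429), 1.45-fold, with an edgeR adjusted p of 2.77e-10. JUND, a JUN protein abundant in resting cells, had 139, 136 and 137 CPM in TNF, against 92.5, 95.5 and 83.4 in DMSO. It rose 1.52-fold, a log2 fold change of 0.60 (SE 0.0631; adjusted p 8.84e-08). ATF3 had 75.1, 73.7 and 72.3 CPM in TNF, against 52.3, 42.9 and 50.1 in DMSO, and rose 1.51-fold (log2 0.60, SE 0.0615; adjusted p 6.09e-08). The 95% intervals of the folds were 1.37 to 1.54 for JUN, 1.39 to 1.66 for JUND and 1.39 to 1.65 for ATF3.

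The FOS genes did not pass the test for TNFα. FOSL2, which encodes FRA-2, had 19.0, 18.5 and 18 CPM in TNF, against 15.4, 15.7 and 16.0 in DMSO. The libraries did not overlap, but the log2 fold change of 0.24 (SE 0.0764) had an adjusted p of 0.143. That p was 0.0499 with TNF_SnxB library 1 alone and 0.0467 without TNF_SnxB library 1, and FOSL2 passed in 2 of 20 alternatives. FOSB had 1.77, 1.85 and 1.76 CPM in TNF, against 1.13, 1.32 and 0.862 in DMSO, a log2 difference of 0.73 (SE 0.252; adjusted p 0.185). FOS, the classical immediate-early gene, had 1.77, 1.53 and 1.94 CPM in TNF, against 2.26, 2.13 and 2.41 in DMSO. All 3 TNF libraries were below the DMSO libraries, at a log2 difference of -0.46 (SE 0.211; adjusted p 0.426). FOSL1, which encodes FRA-1, averaged 3.57 ± 0.280 CPM in TNF and 2.87 ± 0.608 in DMSO (adjusted p 0.639), with overlap between libraries.

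Senexin B against DMSO asks what Mediator kinase inhibition did to the subunits without the cytokine. JUN, JUND and ATF3 fell, JUN the most, to 116 ± 3.58 CPM in SnxB against 276 ± 12.2 in DMSO. These 3 of 8 members were lower (edgeR, adjusted p under 0.05), beside 1.69% of all genes tested. None was higher, beside 0.344% (0 at an unadjusted p under 0.05, and 0 by DESeq2). The groups did not overlap for 6 of 8 members, beside 20.4% of all genes tested.

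JUN had 114, 120 and 114 CPM in SnxB, against 280, 287 and 263 in DMSO, so the inhibited libraries held less than the lowest vehicle library by a wide margin. It fell by 1.25 on the log2 scale (SE 0.0480; edgeR adjusted p 7.2e-18), to 0.420 of its DMSO level. ATF3 had 31.2, 28.7 and 30.3 CPM in SnxB, against 52.3, 42.9 and 50.1 in DMSO, and fell by 0.70 (SE 0.0754; adjusted p 1.76e-07). JUND had 65.6, 60.3 and 64.1 CPM in SnxB, against 92.5, 95.5 and 83.4 in DMSO. It fell by 0.51 (SE 0.0720; adjusted p 1.89e-05), and the groups did not overlap.

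JUNB and FOS stood near the threshold in this comparison. JUNB had 7.98, 8.24 and 7.51 CPM in SnxB, against 10.2, 11.3 and 10.6 in DMSO, a log2 difference of -0.43 (SE 0.124; adjusted p 0.0656). Its groups did not overlap, and it passed in 7 of 20 alternatives, with a highest adjusted p of 0.267. The adjusted p was 0.00929 after the GC and length correction, 0.0132 with TNF_SnxB library 1 alone, 0.0139 without TNF_SnxB library 1 and 0.0346 without TNF_SnxB library 2. FOS had 1.14, 1.52 and 0.846 CPM in SnxB, against 2.26, 2.13 and 2.41 in DMSO, a log2 difference of -0.94 (SE 0.269; adjusted p 0.0653). That p was 0.0413 after the correction, 0.0387 with TNF_SnxB library 1 alone and 0.0355 without TNF_SnxB library 1. FOS passed in 5 of 19 alternatives, with a highest adjusted p of 0.361. FOSL2 had 14.0, 13.6 and 13.2 CPM in SnxB, against 15.4, 15.7 and 16.0 in DMSO (log2 -0.20, SE 0.0895; adjusted p 0.351). FOSB and FOSL1 overlapped between the groups, at log2 differences of 0.03 (95% interval -0.64 to 0.70) and 0.16 (-0.29 to 0.62).

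TNF_SnxB against TNF asks what the inhibitor did in cells that also had the cytokine. The 3 JUN genes, ATF3 and FOSL2 fell, 5 of 8 members beside 13.9% of all genes tested that were lower and 13.3% that were higher. For 7 of 8 members the groups did not overlap, beside 32.1% of all genes tested. JUN had 139, 128 and 122 CPM in TNF_SnxB, against 417, 392 and 396 in TNF, and no other member lost as large a part of its level. It fell by 1.63 on the log2 scale (SE 0.0456; edgeR adjusted p 3.03e-21), to 0.323 of its level in TNF. ATF3 had 43.0, 37.1 and 42.0 CPM in TNF_SnxB, against 75.1, 73.7 and 72.3 in TNF, and fell by 0.86 (SE 0.0626; adjusted p 2.82e-11). Both moved alike after the GC and length correction, by -1.51 and -0.88 on the log2 scale, and with TNF_SnxB library 1 alone, by -1.52 and -0.78.

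The GC-rich genes JUND and JUNB moved less once the GC trend was taken out. JUND had 83.9, 63.3 and 67.6 CPM in TNF_SnxB, against 139, 136 and 137 in TNF, with libraries 2 and 3 well under library 1. It fell by 0.95 (SE 0.0645; adjusted p 6.12e-12), and by 0.63 after the correction. With library 1 alone the log2 difference was -0.71. JUNB had 46.4, 37.4 and 41.7 CPM in TNF_SnxB, against 57.7, 57.4 and 57.3 in TNF. The log2 change was -0.47 (SE 0.0600; adjusted p 2.78e-06), -0.22 after the correction (adjusted p 0.000632) and -0.31 with library 1 alone (adjusted p 0.00923). The offsets that the correction gave TNF_SnxB libraries 2 and 3 were -0.305 and -0.307 for JUND, -0.234 and -0.240 for JUNB, -0.124 and -0.126 for JUN, and 0.034 and 0.023 for ATF3, in log2 units.

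FOSL2 had 14.5, 14.8 and 15 CPM in TNF_SnxB, against 19.0, 18.5 and 18 in TNF, without overlap. It fell by 0.32 (SE 0.0761; edgeR adjusted p 0.00291), and by 0.25 after the correction (adjusted p 0.019). With TNF_SnxB library 1 alone the log2 difference was -0.35 (SE 0.129) at an adjusted p of 0.154, the 1 of 20 alternatives in which it did not pass. FOS had 1.1, 0.957 and 1.07 CPM in TNF_SnxB, against 1.77, 1.53 and 1.94 in TNF, a log2 difference of -0.66 (SE 0.251; adjusted p 0.0514). FOSB averaged 1.19 ± 0.104 CPM in TNF_SnxB and 1.79 ± 0.0462 in TNF (log2 -0.62, SE 0.241; adjusted p 0.0543). FOSL1 averaged 2.76 ± 0.582 CPM in TNF_SnxB and 3.57 ± 0.280 in TNF (adjusted p 0.158), with overlap.

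**Figure D3:**
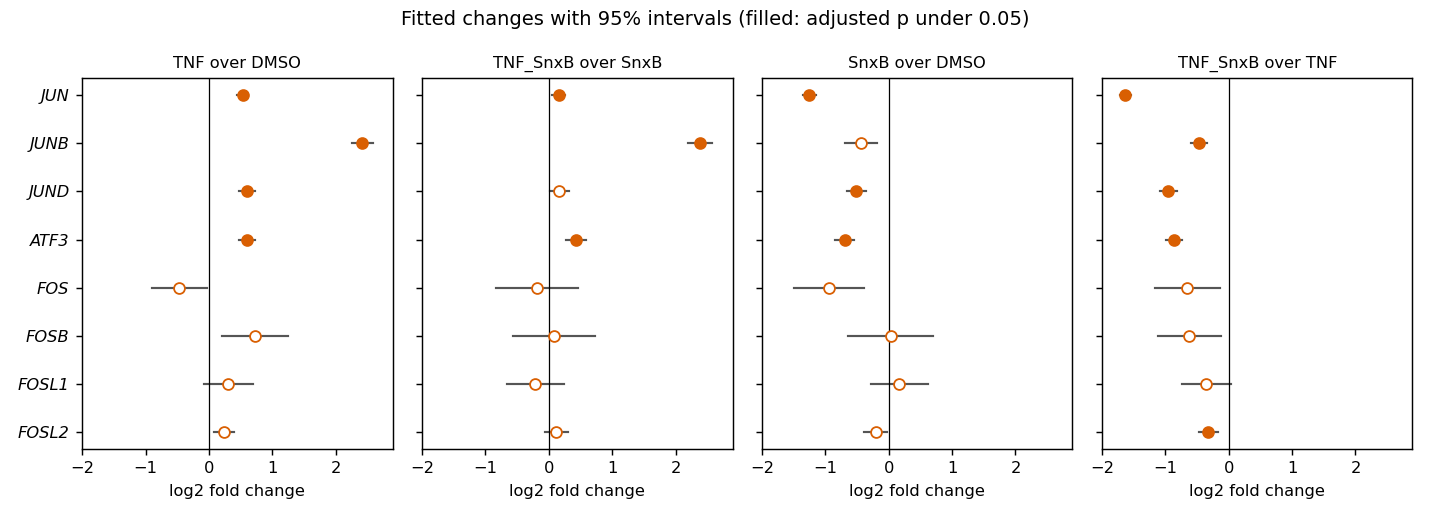
Fitted log2 fold changes (x axis) of the 8 AP-1 genes in 4 comparisons, with 95% intervals as lines and filled points where the adjusted p is under 0.05. JUNB is at 2.42 for TNF over DMSO and 2.39 for TNF_SnxB over SnxB, while JUN is at -1.25 for SnxB over DMSO and -1.63 for TNF_SnxB over TNF.

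TNF_SnxB against SnxB asks what the cytokine did in cells that already had the inhibitor. JUNB and ATF3 rose and JUN rose slightly, 3 of 8 members beside 7.38% of all genes tested that were higher and 6.83% that were lower. The groups did not overlap for 4 of 8 members, beside 22.7%. JUNB had 46.4, 37.4 and 41.7 CPM in TNF_SnxB, against 7.98, 8.24 and 7.51 in SnxB, 5.24-fold (log2 2.39, SE 0.0943; edgeR adjusted p 1.56e-17). ATF3 had 43.0, 37.1 and 42.0 CPM in TNF_SnxB, against 31.2, 28.7 and 30.3 in SnxB, 1.35-fold (log2 0.44, SE 0.0768; adjusted p 0.000526). Neither gene overlapped between the groups. After the correction the folds were 6.05 for JUNB and 1.32 for ATF3, and with TNF_SnxB library 1 alone 5.86 and 1.44.

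JUN had 139, 128 and 122 CPM in TNF_SnxB, against 114, 120 and 114 in SnxB, 1.12-fold (log2 0.16, SE 0.0504; adjusted p 0.0346). The adjusted p was 0.115 without SnxB library 1, 0.0515 without SnxB library 2, 0.121 without SnxB library 3 and 0.0878 without TNF_SnxB library 2. It was 1.7e-06 after the GC and length correction, at a log2 change of 0.26. With TNF_SnxB library 1 alone, a single sample, the log2 difference was 0.26. JUND had 83.9, 63.3 and 67.6 CPM in TNF_SnxB, against 65.6, 60.3 and 64.1 in SnxB, and TNF_SnxB library 2 lay within the SnxB range. Its log2 difference was 0.16 (SE 0.0736; adjusted p 0.132), 0.44 after the correction (adjusted p 2.33e-10) and 0.41 with library 1 alone (adjusted p 1.56e-05). FOS, FOSB, FOSL1 and FOSL2 gave log2 differences of -0.18, 0.08, -0.22 and 0.12, with adjusted p of 0.405 to 0.894.

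Both agents against vehicle alone gave opposite results for JUN and JUNB. JUNB was 3.88-fold higher in TNF_SnxB than in DMSO (log2 1.96, SE 0.0853; edgeR adjusted p 8.55e-17), while JUN fell by 1.09 (SE 0.0465; adjusted p 4.91e-17). The JUNB fold was 4.41 after the correction and 4.34 with TNF_SnxB library 1 alone, and JUN stood at 0.5 and 0.504 of its DMSO level in those settings. FOS averaged 1.04 ± 0.0748 CPM in TNF_SnxB and 2.27 ± 0.144 in DMSO, and fell by 1.12 (SE 0.262; adjusted p 0.00327). JUND fell by 0.35 (adjusted p 0.000698) and ATF3 by 0.26 (adjusted p 0.00886). In all, 4 of 8 members were lower, beside 9.2% of all genes tested, and 1 was higher, beside 9.21%. The groups did not overlap for JUN, JUNB, FOS and FOSL2, 4 of 8 members, beside 24.9%. With TNF_SnxB library 1 alone, the adjusted p was 0.22 for FOS, 0.474 for JUND and 0.305 for ATF3, and after the correction it was 0.0567 for JUND. For ATF3 it was also 0.0895 without DMSO library 1 and 0.086 without TNF_SnxB library 2.

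The interaction asks whether the TNFα effect differed with and without the inhibitor, and is the TNFα log2 fold change with Senexin B minus that without it. It passed for JUN and JUND, 2 of 8 members, both lower, beside 1.61% of all genes tested that were lower and 0.891% that were higher. For JUN it was -0.38 (SE 0.0662; edgeR adjusted p 0.0141), from a TNFα fold of 1.12 with the inhibitor and 1.45 without it. It was -0.25 after the GC and length correction (adjusted p 0.00357) and -0.27 with TNF_SnxB library 1 alone (adjusted p 0.0211). Leaving out 1 library at a time gave -0.42 to -0.33, past the threshold in 6 of 12 cases. The adjusted p was 0.0743 without DMSO library 3, 0.0565 without SnxB library 2, 0.0569 without SnxB library 3, 0.0639 without TNF library 1, 0.051 without TNF library 3 and 0.075 without TNF_SnxB library 3.

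For JUND the interaction of -0.44 (SE 0.0972; edgeR adjusted p 0.0275) was -0.08 after the correction (adjusted p 0.704) and -0.19 with TNF_SnxB library 1 alone (adjusted p 0.589). It passed in 2 of 12 cases with 1 library left out, those without DMSO library 2 and without TNF_SnxB library 1. In the other 10 the adjusted p was 0.0539 to 0.113. JUNB gave -0.03 (adjusted p 0.917), and the 95% interval of the ratio of its TNFα folds, with over without the inhibitor, was 0.803 to 1.19. The JUNB value was 0.24 after the correction and 0.13 with TNF_SnxB library 1 alone, neither past the threshold. ATF3 gave -0.16 (SE 0.0991; adjusted p 0.322), with an interval of that ratio of 0.775 to 1.03. It was -0.20 after the correction and -0.08 with library 1 alone, at adjusted p of 0.408 and 0.934. FOS, FOSB, FOSL1 and FOSL2 gave 0.28, -0.65, -0.52 and -0.12, with adjusted p of 0.278 to 0.693.

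**Figure D4:**
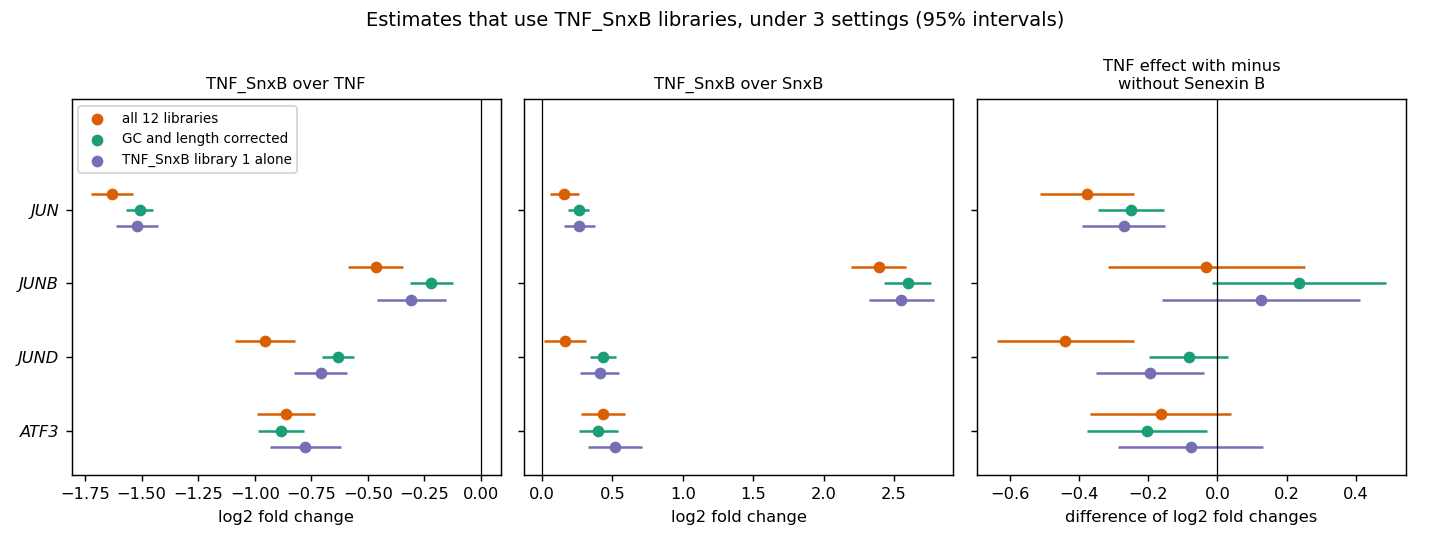
Log2 values (x axis) with 95% intervals for JUN, JUNB, JUND and ATF3 in 3 comparisons that use TNF_SnxB libraries. These are TNF_SnxB against TNF, TNF_SnxB against SnxB and the interaction, while TNF_SnxB against DMSO is not drawn. Values are from all 12 libraries, after a GC and length correction, and with TNF_SnxB library 1 alone. In the right panel JUN stays under 0 at -0.38, -0.25 and -0.27, while JUND is at -0.44, -0.08 and -0.19.

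The mix of JUN-family transcripts shifted with both agents. Per kilobase, JUN made up 37.5 ± 2.16% of the JUN, JUNB and JUND sum in TNF_SnxB, 51.8 ± 0.591% in TNF, 46.1 ± 1.64% in SnxB and 58.9 ± 0.506% in DMSO (SD, n = 3 each). No groups overlapped. JUNB made up 23.4 ± 0.938% in TNF_SnxB, 14.4 ± 0.269% in TNF, 6.11 ± 0.282% in SnxB and 4.45 ± 0.241% in DMSO, and again the libraries of different groups stayed apart. JUND made up 39.0 ± 1.80% in TNF_SnxB, 33.7 ± 0.324% in TNF, 47.8 ± 1.85% in SnxB and 36.6 ± 0.666% in DMSO.

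These shares carry no GC correction. In TNF_SnxB the share of JUN was lowest and that of JUNB highest of the 4 groups. TNF_SnxB library 1 had 35.8% JUN, 23.2% JUNB and 41% JUND, library 2 had 40.0%, 22.6% and 37.4%, and library 3 had 36.8%, 24.5% and 38.7%. Each of the 15 comparisons (3 shares, 5 pairs of groups) gave an exact two-sided permutation p of 0.1, the smallest that 3 against 3 allows, and 0.1 after Benjamini-Hochberg adjustment. The sum of all 8 transcripts was 112 ± 10.6 CPM per kb in TNF_SnxB, 242 ± 5.11 in TNF, 82.7 ± 0.461 in SnxB and 149 ± 6.03 in DMSO. ATF3 made up 8.99 ± 0.552% of that sum in TNF_SnxB, 7.53 ± 0.0998% in TNF, 9.00 ± 0.334% in SnxB and 8.06 ± 0.995% in DMSO.

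**Figure D5:**
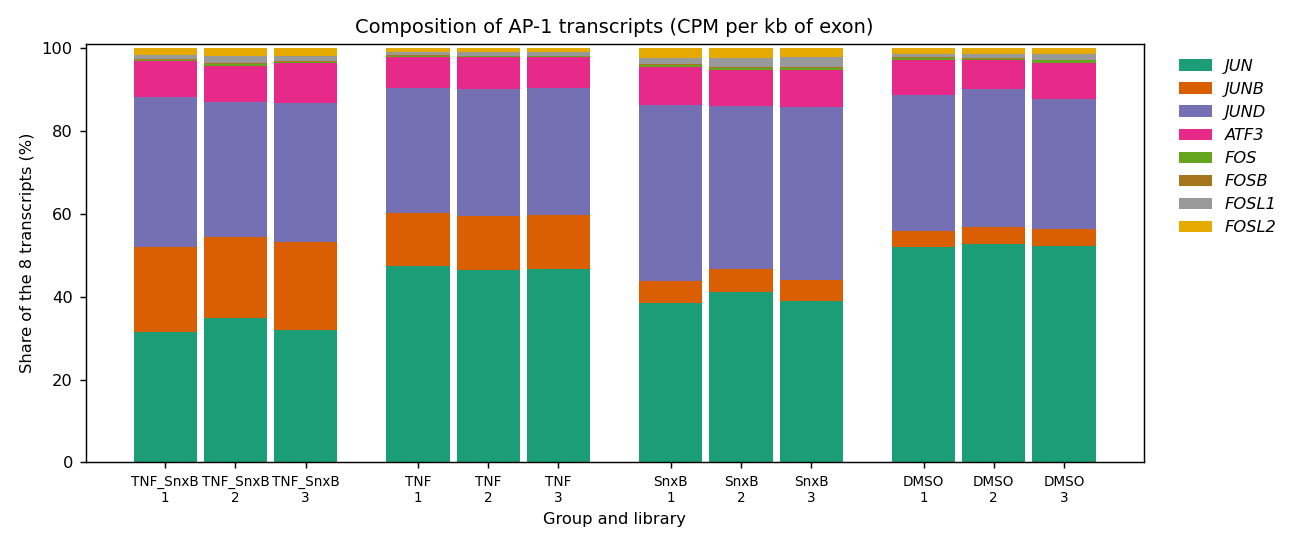
Share of each of the 8 AP-1 transcripts (stacked bars, percent of their summed CPM per kb of exon, y axis) in each library (x axis, by group). JUN makes up 31.6 to 34.8% in TNF_SnxB and 52.1 to 52.7% in DMSO, while JUNB makes up 19.7 to 21.2% in TNF_SnxB and 3.71 to 4.10% in DMSO.

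Distances between members were taken over the 3 group differences from DMSO (SnxB, TNF and TNF_SnxB). These used log2 of mean CPM + 0.5, with no GC correction. JUND and ATF3 were the closest pair, at a distance of 0.189, while JUN and JUNB were 3.61 apart. Among the 14126 genes that averaged 1 CPM or more, those nearest to JUND were BBC3 (0.108), NRARP (0.243) and FJX1 (0.259), and those nearest to ATF3 were NRARP (0.137), MIR503HG (0.233) and BBC3 (0.249). The genes nearest to JUNB were BIRC3, a TNF receptor-associated ubiquitin ligase, CD83 and SDC4, at 0.317, 0.341 and 0.345. JUN had RP6-24A23.6 (0.346), IRS4 (0.422) and ZNF711 (0.524) nearest. FOSL2 had MYCL (0.0319), MAP3K14 (0.0365) and RP11-582J16.5 (0.0558), and FOS had TSC22D3 (0.0551), ID2 (0.118) and TSPYL2 (0.145). FOS averaged 1.04 to 2.27 CPM by group, and with the added 0.5 CPM its 3 differences were -0.73, -0.30 and -0.84. The fitted log2 changes were -0.94, -0.46 and -1.12, so the distances of FOS rest partly on that addition.

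The genes also differ in structure. JUN (chr1:58780788-58784327), JUNB (chr19:12791496-12793315) and JUND (chr19:18279760-18281622) have 1 exon each in their principal GENCODE transcript, and the other 5 have 4. The AU-rich pentamer ATTTA, which marks short-lived messages when repeated, occurred 5 times in the 3′ UTR of FOS, or 6.20 per kb. JUNB had 2 (4.00 per kb), JUN 3 (2.33 per kb), ATF3 3 (2.46 per kb) and JUND 1 (1.47 per kb). Over 18940 such UTRs the median was 1.41 per kb, and 64.3% held at least 1.

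Other genes of the pathway were counted from 5 lists. With TNFα, 1 of 27 tested bZIP genes outside the 8 fell, beside 0.594% of all genes tested, and 0 rose, beside 1.43%. The relative MAF fell by 0.60 (SE 0.130, edgeR adjusted p 0.00603), to 5.61 ± 0.749 CPM in TNF against 8.80 ± 0.377 in DMSO. With Senexin B, 2 of the 27 fell, beside 1.69% of all genes tested, and 0 rose, beside 0.344%. ATF5 fell by 0.29 (SE 0.0700, edgeR adjusted p 0.0184), to 55.3 ± 4.48 CPM in SnxB against 67.8 ± 5.66 in DMSO. The list medians were 0.02 for TNFα and -0.04 for Senexin B, against -0.0025 and 0.0025 over all genes. In TNF_SnxB against TNF, 5 rose and 7 fell, beside 13.3% and 13.9% of all genes tested. After the GC and length correction 1 rose and 3 fell, beside 4.57% and 7.27%. ATF5 and MAFK fell in TNF_SnxB against TNF by 0.47 and 0.58, and by 0.28 and 0.36 after the correction. With library 1 alone they were at -0.35 (adjusted p 0.00249) and -0.26 (adjusted p 0.22). CEBPB fell by 0.46 and CREB1, which binds the cyclic AMP response element, rose by 0.33, but after the correction they were at -0.18 (adjusted p 0.22) and 0.11 (adjusted p 0.106).

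Of 17 kinases of the JNK, p38 and ERK routes, the JNK activator MAP3K11 rose with TNFα by 0.25 (SE 0.0676; edgeR adjusted p 0.0488), while DESeq2 called 0 of the 17. With Senexin B 0 of the 17 passed (1 at an unadjusted p under 0.05, 0 by DESeq2). In TNF_SnxB against TNF, 6 rose and 4 fell, beside 13.3% higher and 13.9% lower of all genes tested. After the correction 3 rose and 0 fell, beside 4.57% and 7.27%. Of SRF and its 5 cofactors, which act on the FOS promoter, 0 passed with TNFα and 0 with Senexin B (1 each at an unadjusted p under 0.05, 0 by DESeq2). In TNF_SnxB against TNF 2 of these 6 rose, beside 13.3% of all genes tested, and 0 fell, beside 13.9%. MKL2 rose by 0.15 (edgeR adjusted p 0.027) and ELK4 by 0.18 (adjusted p 0.0463). After the correction MKL2 was at 0.15 (adjusted p 0.0092) and ELK4 at 0.01 (adjusted p 0.953), and with library 1 alone they were at 0.09 and 0.05, with adjusted p of 0.63 and 0.88. Of 12 genes of AP-1 protein turnover or repression, 0 passed in either comparison (0 at an unadjusted p under 0.05, 0 by DESeq2). ITCH, a ubiquitin ligase for JUN proteins, had an interaction of 0.34 (SE 0.0886; adjusted p 0.0405), with adjusted p of 0.374 after the correction and 0.795 with library 1 alone.

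Known AP-1 target genes were tested for 19 of 30 listed. With TNFα 4 rose, beside 1.43% of all genes tested, and 0 fell, beside 0.594%. The chemokine CXCL8 was at 4.35 ± 0.815 CPM in TNF against 0.115 ± 0.0999 in DMSO (edgeR adjusted p 1.58e-10). CCL2 rose 5.71-fold, the protease gene PLAU 4.17-fold and the phosphatase gene DUSP1 1.27-fold (edgeR adjusted p 1.87e-08, 7.91e-05 and 0.0018). In DMSO, CCL2 averaged 1.14 ± 0.282 CPM and PLAU 0.418 ± 0.108. The floor of 3 counts was 0.256 to 0.301 CPM in the DMSO libraries, above the mean of CXCL8 and near that of PLAU. CXCL8, CCL2 and others of the list also respond to NF-κB. With Senexin B 2 fell, beside 1.69% of all genes tested, and 0 rose, beside 0.344%. DUSP1 fell by 0.64 (edgeR adjusted p 2.1e-06) and the cyclin gene CCND1 by 0.48 (adjusted p 1.57e-05).

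In TNF_SnxB against TNF, 11 of the 19 targets fell and 1 rose, beside 13.9% and 13.3% of all genes tested, at a list median of -0.18 against 7e-04 over all genes. After the GC and length correction 6 fell and 0 rose, beside 7.27% and 4.57% of all genes, and with TNF_SnxB library 1 alone 5 and 0, beside 1.91% and 0.727%. CXCL8 fell by 1.78 (SE 0.229; edgeR adjusted p 2.78e-06), to 1.28 ± 0.132 CPM in TNF_SnxB against 4.35 ± 0.815 in TNF. DUSP1 fell by 0.82 (adjusted p 7.62e-10) and CCND1 by 0.59 (adjusted p 6.03e-08), and both passed under the correction and with library 1 alone. TGFB1 fell by 0.32 (adjusted p 0.000885), with adjusted p of 0.34 and 0.387 in those settings. The interaction passed for 0 of the 19 (4 at an unadjusted p under 0.05, 0 by DESeq2).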

How the data were processed

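For each gene symbol the authors deposited whole-number counts, unnormalized, in 12 libraries. Per the submitters' processing notes, the tools were STAR 2.4, SAMtools 1.2 and featureCounts of Subread 1.4.6 on hg38. The sources used here give no annotation, strand setting or read length. Per the labels' protocols, total RNA went into Illumina TruSeq RNA libraries.

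From the counts, filterByExpr kept 14822 genes. The edgeR 4.0.16 quasi-likelihood model (TMM, group means, all 12 libraries, R 4.3.3) gave 5 pairwise contrasts and the interaction, two-sided, with Benjamini-Hochberg adjustment over all tested genes and a threshold of 0.05. Floors of 3 counts cover counting error only. The biological coefficient of variation was 3.49%. The contrasts share groups and are not independent. Library depth ran from 8705277 to 50943310 counts.

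The members, lists and rules were chosen with earlier results of these data known. The genes named were all members, up to 4 called genes per list and comparison with the smallest adjusted p, and the 3 genes nearest in pattern to each member called. Other genes were named only as overlapping or marker genes, and 1 gene that the rule named is not reported here.

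Alternatives were median-of-ratios size factors, DESeq2 1.42.0, no filter, only the groups compared, a replicate block, a GC and length correction (loess offsets, span 0.3), that correction with the block, TNF_SnxB library 1 alone, and each library left out. Lengths, GC content and positions came from GENCODE 29 (GRCh38), matched by symbol for 13419 tested genes (90.5%). For unmatched genes no correction was made. Simulated counts with known changes were used to check the tests. Between replicates of a group, chi-square over its degrees of freedom was 1.068 to 1.58, except TNF_SnxB library 1 against libraries 2 and 3 (5.631 and 5.39).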

Additional observations from a re-analysis of the deposited data

Results flagged for a closer look

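The TNFα effect on JUN differed with and without Senexin B, by the edgeR interaction test (log2 difference -0.38, adjusted p 0.0141). JUN had 139, 128 and 122 CPM in TNF_SnxB and 417, 392 and 396 in TNF, and 114, 120 and 114 CPM in SnxB and 280, 287 and 263 in DMSO. The value was -0.25 after the GC and length correction, and leaving out 1 library ended the call in 6 of 12 cases (adjusted p 0.051 to 0.075).

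For JUND the same test gave -0.44 (adjusted p 0.0275). JUND had 83.9, 63.3 and 67.6 CPM in TNF_SnxB, where libraries 2 and 3 carry the GC trend, and -0.08 remained after the GC and length correction. What part that trend has in the all-library value was not tested beyond this correction and the fit with TNF_SnxB library 1 alone, -0.19.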

How the results depend on the processing

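Over 937 alternative values of single members, 870 kept direction and side of the threshold, 33 lost the threshold, 18 gained it and 16 turned direction. Those that turned had no call: the JUNB interaction (0.24 after the GC and length correction, 0.23 with the replicate block as well, 0.13 with TNF_SnxB library 1 alone) and FOSL1 in TNF_SnxB against DMSO (0.084 and 0.0601 with the correction, without and with the block). Leaving out 1 library gave log2 values of -0.23 to 0.27 for FOSB in SnxB against DMSO, -0.37 to 0.0716 for FOS and -0.16 to 0.34 for FOSB in TNF_SnxB against SnxB, -0.0434 to 0.24 for FOSB and -0.25 to 0.14 for FOSL1 in TNF_SnxB against DMSO, and -0.10 to 0.0421 for the JUNB interaction.

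Of all genes, 300 were called for TNF over DMSO, 301 for SnxB over DMSO, 4029 for TNF_SnxB over TNF, 2106 for TNF_SnxB over SnxB, 2729 for TNF_SnxB over DMSO and 370 for the interaction. In that order, leaving out 1 library gave 177 to 874, 172 to 879, 1869 to 6769, 512 to 5391, 1285 to 5642 and 3 to 4534. With TNF_SnxB library 1 alone the counts were 858, 864, 403, 219, 690 and 19; after the GC and length correction the first 4 were 571, 692, 1756 and 735 and the interaction 45, and with the replicate block as well 568, 728, 1778, 773 and 72. With only the groups compared the 5 pairwise counts were 776, 742, 2442, 504 and 1225. For the interaction, no filter gave 711 and the replicate block 736.

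Of the members, 5 and not 3 were called in SnxB against DMSO with the correction, with and without the block, with only the groups compared and with TNF_SnxB library 1 alone. In TNF_SnxB against DMSO 2 and not 5 were called with library 1 alone. In the interaction 1 and not 2 was called with the correction, with and without the block, and with library 1 alone. Leaving out 1 library gave 4 to 5, 3 to 5, 5, 2 to 3, 4 to 5 and 0 to 2 members. The cause of these shifts was not tested. Same-numbered libraries were little correlated: 0 of 18 correlations between them were over 0.1 (-0.04 to 0.094). With 3 libraries per group, and a GC trend in TNF_SnxB libraries 2 and 3, these values cannot settle whether replicate numbers pair the samples. Under the replicate block alone the count of called members changed in no comparison.

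Without division by length, JUN made up 53.5% of the JUN family in TNF_SnxB, 67.3% in TNF, 61.9% in SnxB and 73.2% in DMSO. Depth limits FOS and FOSB, which had 8 to 93 counts per library.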
